A study of Mus musculus with 6 samples.

Results

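The genes described here encode 10 neuropeptide precursors, the proteins from which neurons cut small signalling peptides. They were taken by symbol from a table of 21286 genes, and all 10 were found there. By the neurons they are best known for in the forebrain, Tac1, Penk and Pdyn were set apart as genes of striatal projection neurons, Sst, Npy, Cck and Crh as genes of interneurons, and Gal, Nts and Cartpt as genes of other or mixed use. The libraries were made from total RNA of the lateral ganglionic eminence (LGE), the embryonic forebrain region that gives rise to striatal projection neurons and olfactory bulb interneurons, at embryonic day 16.5. There were 3 libraries of Dlx1/2 -/- mutants, which lack the homeobox transcription factors Dlx1 and Dlx2, and 3 of wild type littermates. Both genotypes were on a mixed C57BL/6J, 129S6 and CD1 background. The labels do not say whether a library came from 1 embryo or a pool, nor that replicates were separate animals, so p-values measure only the spread between these libraries. The data columns of each genotype carry a name prefix of their own. Batches are not labelled, and any that ran along with these prefixes cannot be told apart from the genotype. Which part of each allele was removed is not stated by the labels.

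A neuropeptide is made as a long precursor, which passes into dense-core granules, is cut there at pairs of basic residues and is often amidated at its end before release. In the mature striatum, projection neurons of the direct pathway make substance P (from Tac1) and dynorphin (from Pdyn), and those of the indirect pathway make enkephalins (from Penk). Somatostatin (Sst) and neuropeptide Y (Npy) are made together by a class of striatal and cortical interneurons, most of which arise in the medial ganglionic eminence (MGE). Both are also made elsewhere in the brain, among other places in the hypothalamus.

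The stretches of coding sequence that spell the active peptides are shown for the 6 precursors with enough reads to be tested, since these peptides are what the transcripts are known for. They were read from GENCODE M21 transcripts on GRCm38. Lower case marks the named sequence, and capitals mark flanking codons for basic residues or for the glycine used in amidation. For Pdyn only the Leu-enkephalin sequence is in lower case, and whether the precursor is cut at the basic pair after it was not tested.
Sst, somatostatin-14: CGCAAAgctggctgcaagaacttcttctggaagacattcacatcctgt
Npy, neuropeptide Y: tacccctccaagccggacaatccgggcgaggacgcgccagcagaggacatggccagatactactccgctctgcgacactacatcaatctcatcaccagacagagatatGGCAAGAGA
Tac1, substance P: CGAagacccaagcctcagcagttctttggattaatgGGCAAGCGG
Penk, first copy of Met-enkephalin: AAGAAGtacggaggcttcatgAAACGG
Pdyn, first copy of the Leu-enkephalin sequence: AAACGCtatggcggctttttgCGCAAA
Nts, neurotensin: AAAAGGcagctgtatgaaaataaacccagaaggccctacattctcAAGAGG

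The somatostatin-14 stretch lies in exon 2 of Sst at chr16:23889732-23889779 on the minus strand, and its 14 codons are the last of the reading frame. Neuropeptide Y is split between exons 2 and 3 of Npy, between chr6:49823682-49827501 on the plus strand. Substance P lies in exon 3 of Tac1 at chr6:7556729-7556773 on the plus strand, and the Tac1 reading frame holds 2 stretches with the tachykinin ending, Phe-X-Gly-Leu-Met-Gly and a basic residue. The enkephalin copy lies in exon 2 of Penk at chr4:4134328-4134354 on the minus strand, and that of Pdyn in exon 4 at chr2:129688232-129688258 on the minus strand. The opioid core Tyr-Gly-Gly-Phe stands 7 times in the Penk reading frame, 6 times followed by Met and 1 time by Leu, and 3 times in that of Pdyn, each time followed by Leu. Neurotensin lies in exon 4 of Nts at chr10:102482349-102482399 on the minus strand.

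The peptide genes of interneurons and of striatal neurons moved apart in the mutant. Sst and Npy rose 12.8-fold and 4.28-fold. Tac1, Pdyn and Penk fell 14.4-fold, 4.10-fold and 2.14-fold, and Nts fell 5.57-fold. Of the 10 precursors 6 passed the filter on low counts, of which 2 rose and 4 fell at a Benjamini-Hochberg adjusted p under 0.05 in the quasi-likelihood test of edgeR. Among the falls, Nts passed the filter by its wild type reads alone, so its direction was set by the filter. Cck, Crh, Gal and Cartpt had too few reads in both genotypes to be tested. Over all 15326 genes tested, 11.2% were higher and 12.8% lower by this rule, and 2.84% were higher and 4.04% lower by at least 2-fold, as all 6 tested precursors were. In each of the 6 the libraries of the genotypes did not overlap, with the mutant above for 2 and below for 4; over all tested genes the mutant lay wholly above in 20.7%, wholly below in 21.2% and on either side in 41.9%. The members were listed with these results in view, so their share of calls is given as a description. Penk alone lost its call when a library was left out, in 4 of the 6 cases, so the count of lower genes was 3 or 4.

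Depth and the check of the labels were as follows. Libraries held 10711630 to 16588359 counts, and wild type replicate 1 was the smallest. Dlx2 had 15.5 to 18.7 CPM (read counts scaled to a common library size with TMM factors) in mutant libraries and 418.4 to 470.3 CPM in wild type libraries, and Dlx1 had 109.2 to 137.5 CPM in mutant and 830.5 to 897.5 CPM in wild type libraries. A level of 3 reads in a library corresponds to 0.181 to 0.287 CPM. Mitochondrial genes took 1.87% to 1.97% of the counts in mutant and 1.87% to 2.02% in wild type libraries.

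**Figure D1:**
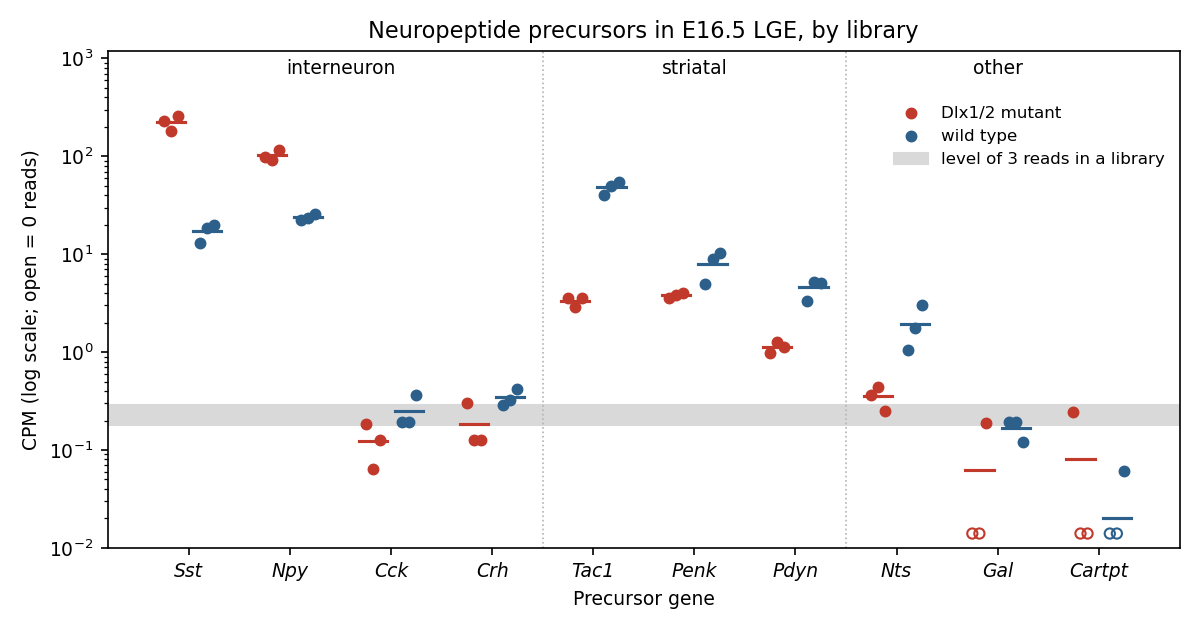
Level of each precursor in each library, in CPM on a log axis, with mutant libraries on the left and wild type libraries on the right of each gene; points are libraries, short lines are means of 3, open circles are libraries with 0 reads, and the grey band is the level of 3 reads. Mutant Sst libraries lie at 181.5 to 256.4 CPM, above wild type at 13.1 to 19.96 CPM, while mutant Tac1 libraries lie at 2.91 to 3.58 CPM, below wild type at 39.9 to 54.2 CPM.

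Sst, the precursor of somatostatin (ENSMUSG00000004366, GRCm38 chromosome 16, 23889573 to 23890958, minus strand), had 3770, 2872 and 4081 reads in mutant replicates 1 to 3, against 137, 286 and 331 in wild type replicates 1 to 3. Scaled, these were 229.6, 181.5 and 256.4 CPM in the mutant and 13.1, 18.6 and 19.96 CPM in wild type. The lowest mutant library was thus far above the highest wild type library. The log2 fold change was 3.68 ± 0.238 (SE, n = 3 libraries each; edgeR adjusted p = 5.70e-06), and 29 of the 15326 tested genes rose more. An exact permutation test of 3 against 3 libraries cannot go below p = 0.1 for any gene.

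Npy, the precursor of neuropeptide Y (ENSMUSG00000029819, chromosome 6, 49822710 to 49829507, plus strand), had 1634, 1443 and 1852 reads in mutant replicates and 236, 359 and 427 in wild type replicates. Its levels were 99.5, 91.2 and 116.4 CPM in the mutant and 22.6, 23.3 and 25.7 CPM in wild type. The groups did not overlap, and within each genotype Npy varied little between libraries. The log2 fold change was 2.10 ± 0.118 (SE, n = 3 each; edgeR adjusted p = 6.32e-06), and 106 tested genes rose more. Both genes were lowest in replicate 2 and highest in replicate 3 among mutant libraries.

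Sst rose more than Npy, so the pair changed places. Per length, in the FPKM (fragments scaled by gene length and library size) that the authors deposited, Sst stood at 2.18, 1.88 and 2.08 times Npy in mutant replicates and at 0.549, 0.753 and 0.732 times Npy in wild type replicates. This ratio is taken within a library and does not depend on how libraries were scaled. The 3 mutant ratios all lay above the 3 wild type ratios.

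Cck, the precursor of cholecystokinin, and Crh, that of corticotropin-releasing hormone, stood near the detection limit. Cck had 3, 1 and 2 reads in mutant and 2, 3 and 6 in wild type libraries, a ratio of reads of 0.481 with a 95% Clopper-Pearson interval of 0.146 to 1.42. Crh had 5, 2 and 2 reads in mutant and 3, 5 and 7 in wild type libraries (ratio 0.529, interval 0.204 to 1.29). Neither interval excludes equal levels, and both cover counting error only. A rise of the size seen for Sst or Npy lies outside both intervals.

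Tac1, the precursor of substance P and neurokinin A (ENSMUSG00000061762, chromosome 6, 7554879 to 7565834, plus strand), had 58, 46 and 57 reads in mutant replicates and 418, 775 and 899 in wild type replicates. Its levels were 3.53, 2.91 and 3.58 CPM in the mutant and 39.9, 50.3 and 54.2 CPM in wild type. Every mutant library lay far below every wild type library. The log2 fold change was −3.85 ± 0.163 (SE, n = 3 each; edgeR adjusted p = 2.06e-06), and 45 tested genes fell more. In bulk tissue, fewer cells that make a transcript and less of it per cell cannot be told apart, here or for the other genes.

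Pdyn, the precursor of dynorphins (ENSMUSG00000027400, chromosome 2, 129686565 to 129699844, minus strand), was rarer. It had 16, 20 and 18 reads in mutant replicates and 35, 81 and 85 in wild type replicates, or 0.974, 1.26 and 1.13 CPM in the mutant and 3.34, 5.26 and 5.12 CPM in wild type. The groups did not overlap. The log2 fold change was −2.04 ± 0.233 (SE, n = 3 each; edgeR adjusted p = 7.33e-04).

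Penk, the precursor of enkephalins (ENSMUSG00000045573, chromosome 4, 4133531 to 4138819, minus strand), had 59, 60 and 64 reads in mutant replicates and 52, 137 and 170 in wild type replicates. Its levels were 3.59, 3.79 and 4.02 CPM in the mutant and 4.97, 8.89 and 10.25 CPM in wild type. The mutant libraries lay close together, and the lowest wild type library was only just above them. The log2 fold change was −1.10 ± 0.32 (SE, n = 3 each; edgeR adjusted p = 0.0162). With single libraries left out it ran from −1.34 to −0.89 with adjusted p from 9.06e-04 to 0.0587. The transcript A830012C17Rik overlaps Penk on the other strand and held 9 reads over the mutant libraries and 13 over the wild type libraries; no label or header states whether counting used the strand.

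Tac1 fell more than Penk or Pdyn, as ratios within a library show. In deposited FPKM, whose gene lengths set the size of the ratio but not its difference between genotypes, Tac1 stood at 0.465, 0.363 and 0.422 times Penk in mutant replicates and at 3.81, 2.68 and 2.50 times Penk in wild type replicates. Tac1 to Pdyn was 2.53, 1.60 and 2.21 in the mutant and 8.32, 6.66 and 7.37 in wild type. In both ratios the 3 mutant libraries lay below the 3 wild type libraries.

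Nts, the precursor of neurotensin and neuromedin N (ENSMUSG00000019890, chromosome 10, 102481756 to 102490486, minus strand), fell with the striatal genes. It had 6, 7 and 4 reads in mutant replicates and 11, 27 and 50 in wild type replicates, or 0.365, 0.442 and 0.251 CPM in the mutant and 1.05, 1.75 and 3.01 CPM in wild type. The groups did not overlap, but the wild type libraries differed widely among themselves. The log2 fold change was −2.48 ± 0.477 (SE, n = 3 each; edgeR adjusted p = 0.00645), and −2.0 without wild type replicate 3. Nts passed the filter by its wild type reads alone.

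Gal, the precursor of galanin, had 0, 0 and 3 reads in mutant and 2, 3 and 2 in wild type libraries, a ratio of 0.378 with an interval of 0.063 to 1.65. Cartpt, which encodes the CART peptide, had 4, 0 and 0 reads in mutant libraries and 0, 0 and 1 in wild type libraries (ratio 3.53, interval 0.349 to 173.7). A difference between genotypes was not detectable at this depth for either gene.

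**Figure D2:**
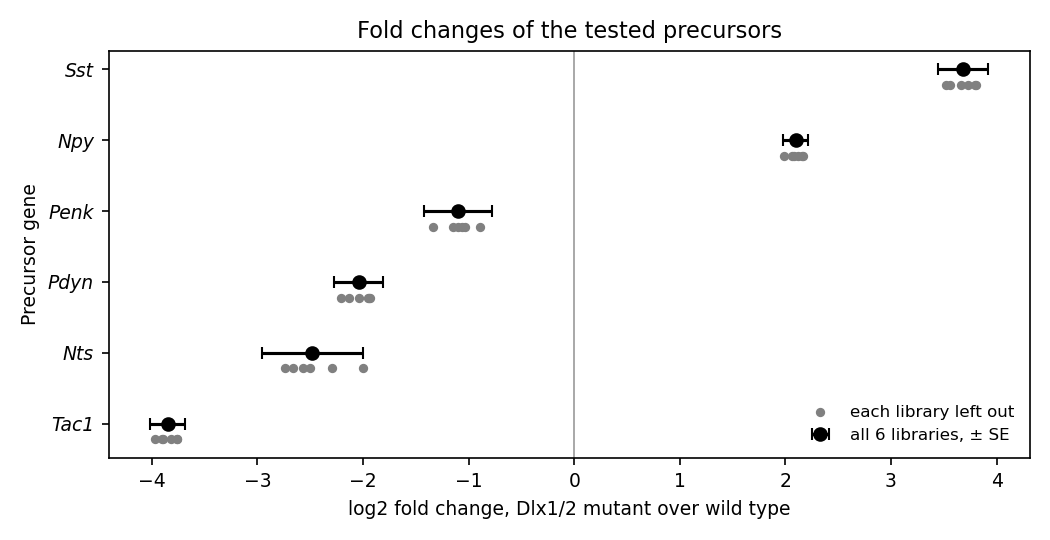
Log2 fold change of the 6 tested precursors, mutant over wild type; black points are the values from all 6 libraries with their SE, and grey points are the values with each library left out. Sst and Npy stay between 1.99 and 3.81, and Tac1, Nts, Pdyn and Penk stay between −3.97 and −0.89.

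The order of levels per length differed between genotypes. In the mutant the order by deposited FPKM was Sst (374.4 ± 62.5), Npy (182.3 ± 21.9), Penk (1.77 ± 0.088), Tac1 (0.735 ± 0.082), Pdyn (0.355 ± 0.045) and Nts (0.303 ± 0.084; mean ± SD, n = 3). In wild type it was Npy (41.8 ± 3.34), Sst (28.5 ± 6.34), Tac1 (10.4 ± 1.72), Penk (3.68 ± 1.29), Nts (1.64 ± 0.855) and Pdyn (1.42 ± 0.348). The neighbours Pdyn and Nts did not differ beyond their spread in either genotype, and Cck, Crh, Gal and Cartpt came last in both, at 0.0884 to 0.182 FPKM in the mutant and 0.0230 to 0.362 FPKM in wild type.

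Sst and Npy made up nearly all transcripts of the 10 precursors in the mutant. In deposited FPKM, the pair held 99.3%, 99.3% and 99.4% of the sum over the 10 precursors in mutant replicates, and 81.8%, 79.1% and 78.3% in wild type replicates. Tac1, Penk and Pdyn together held 0.469% to 0.594% in mutant and 15.98% to 18.3% in wild type libraries. The sum itself was 570.7, 472.0 and 638.2 FPKM in mutant and 73.7, 91.1 and 100.6 FPKM in wild type replicates. The deposited FPKM of Tac1 rest on a length of 4584 bases, whereas its longest coding transcript in GENCODE M21 has 1230 bases; for Sst these are 599 and 721 bases. Per kilobase of the longest coding transcript, Tac1 came second in wild type, at 39.1 ± 5.99 CPM per kilobase beside 42.2 ± 2.95 for Npy and 23.9 ± 5.03 for Sst, and above Penk in the mutant, at 2.72 ± 0.305 beside 2.62 ± 0.148, a difference within their spread. This scale was added after the data were seen. On that scale the 3 striatal genes held 1.08% to 1.32% in mutant and 38.5% to 41.6% in wild type libraries. The lengths do not touch the fold changes, which compare a gene with itself.

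**Figure D3:**
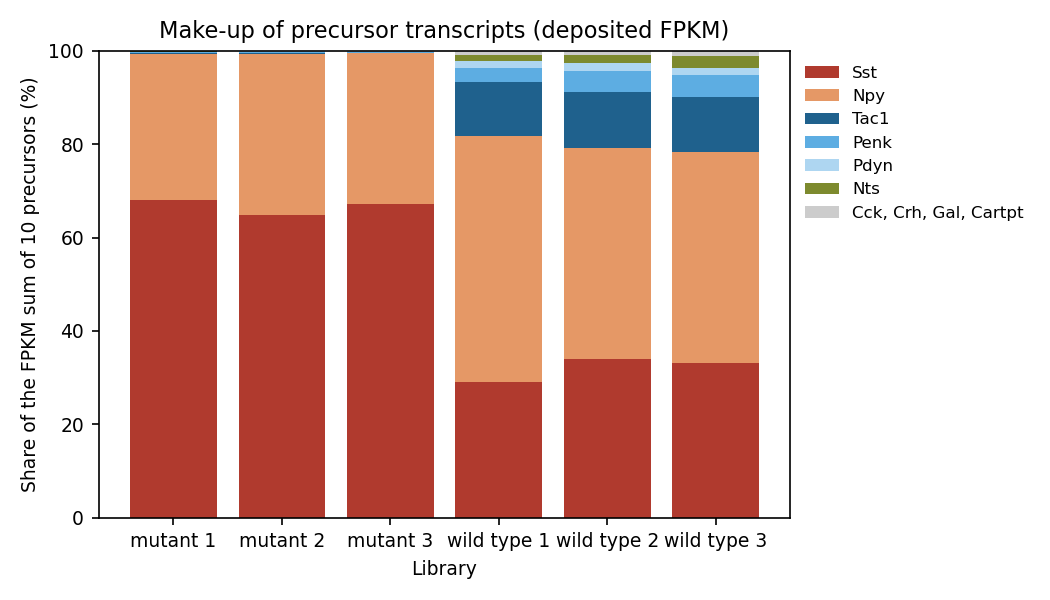
Share of each precursor in the sum of deposited FPKM over the 10 precursors, in percent, 1 bar per library, mutant libraries on the left. Sst and Npy fill at least 99.3% of each mutant bar and at most 81.8% of each wild type bar.

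Among wild type libraries, replicate 1 had the lowest level of all 6 tested precursors. Set against wild type replicate 3, it held 34.9% of the level of Nts, 48.5% of Penk, 65.3% of Pdyn, 65.6% of Sst, 73.7% of Tac1 and 87.6% of Npy. In the same library Lhx6 and Nkx2-1, transcription factors of the MGE lineage, were lowest too, at 145.1 and 37.7 CPM, against 220.0 and 113.7 CPM in wild type replicate 3. The pallial factor Neurod2 was at 5.35 CPM there and at 17.0 and 10.97 CPM in wild type replicates 2 and 3. Summed striatal markers did not share this order, with 608.8, 560.2 and 595.1 CPM for the direct pathway list in wild type replicates 1 to 3. Without wild type replicate 1 the 6 precursors kept their direction and their calls. The part of the markers in the spread of the peptide genes was not tested.

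Markers of the neurons to which the peptides belong were set beside them. Of the striatal lists, 4 of 5 direct, 4 of 4 indirect and 8 of 9 shared markers that were tested fell and none rose. Over all genes tested, 12.8% were lower and 11.2% higher. The medians of these lists were −1.45, −2.72 and −2.53 on the log2 scale, beside 0.00281 over all genes. The dopamine receptor Drd1, found on direct pathway neurons, which also make Tac1 and Pdyn, fell to 0.643 ± 0.083 CPM in the mutant, against 19.8 ± 2.96 CPM in wild type. Its log2 fold change was −4.92 ± 0.158 (SE, n = 3 each, edgeR adjusted p = 1.85e-06). The mutant reads of Drd1 would not have passed the filter on low counts alone, so the filter favoured a fall. The same holds for Ppp1r1b of the shared list, and Gpr6 of the indirect list passed by its wild type reads alone, so that its direction was set by the filter. Both were picked after their values were seen. The more abundant direct markers Ebf1 and Isl1 fell less than Drd1. Ebf1 was at 46.6 ± 4.81 CPM in the mutant and 318 ± 9.82 CPM in wild type (log2 fold change −2.77). Isl1 was at 164 ± 9.46 CPM in the mutant and 237 ± 20.0 CPM in wild type (log2 fold change −0.54). Drd2 and Adora2a, receptors of the indirect pathway neurons, which also make Penk, fell by 2.71 and 2.73 on the log2 scale.

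Markers of MGE interneurons moved in both directions. Of these, 14 were tested, and 3 rose and 5 fell while 6 did not pass (median −0.15). The shares over all genes tested were 11.2% higher and 12.8% lower. Their summed level was 799.0 to 808.2 CPM in mutant and 1007 to 1199 CPM in wild type libraries. Lhx6, which MGE interneurons keep as they mature, was at 155.1 ± 9.92 CPM in the mutant and 177.9 ± 38.3 CPM in wild type (edgeR adjusted p = 0.341). The factor Satb1 rose by 0.71 on the log2 scale. The next pair was picked from the list after its values were seen. Chodl, a marker of cells with both Sst and Npy, rose to 7.32 ± 1.39 CPM in the mutant, against 1.84 ± 0.766 CPM in wild type (log2 fold change 1.93, adjusted p = 0.0022), and Nos1, the neuronal nitric oxide synthase of the same cells, was at 4.10 ± 0.771 and 3.81 ± 1.73 CPM in mutant and wild type.

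Markers of hypothalamic, pallial glutamatergic, caudal ganglionic eminence and non-neuronal cells were also set beside the peptides, and not all of them rose. The counts below stand beside 11.2% higher and 12.8% lower over all genes tested. Of 18 hypothalamic markers 16 were in the table and 5 were tested, of which 4 rose and none fell. Of these 4, Lhx1 and Lhx5 passed the filter through their mutant reads alone, so their direction was set by the filter. The wild type reads of the other rising genes, Otp and Lhx9, would not have passed it alone, so the filter favoured their rise. The summed level of the list was 441.0 to 503.7 CPM in mutant and 2.66 to 4.88 CPM in wild type libraries. Nearly all of this was Otp, a homeobox factor of hypothalamic neurons, at 419.1, 436.2 and 480.9 CPM in mutant replicates and 0.382, 0.325 and 0.965 CPM in wild type replicates. Lhx9 rose to 14.9 ± 2.45 CPM in the mutant, against 0.629 ± 0.125 CPM in wild type, and Tbx3 was at 1.45 ± 0.173 and 1.78 ± 0.378 CPM in mutant and wild type (adjusted p = 0.474). Among others picked after their values were seen, Lhx1 and Lhx5 rose as well, with 71 and 61 reads over the mutant libraries and 3 and 2 over the wild type libraries, Sim1 had 36 reads in the mutant and 2 in wild type, and Foxb1 and Nr5a1 each had 2 in the mutant and 0 in wild type. Of 8 pallial glutamatergic markers tested, 6 rose and none fell (summed level 170.4 to 264.0 CPM in mutant and 29.6 to 84.96 CPM in wild type libraries), among them Bhlhe22, Neurod2 and Neurod6. The 2 that did not pass were Tbr1, at 6.91 ± 2.77 CPM in the mutant and 12.6 ± 7.07 CPM in wild type (adjusted p = 0.182), and Eomes, at 4.33 ± 2.40 CPM in the mutant and 8.61 ± 5.14 CPM in wild type (adjusted p = 0.206). Of the untested markers, Slc17a7 had 10 reads in the mutant and 11 in wild type, and Emx1 had 12 in the mutant and 26 in wild type. Of 6 markers of the caudal ganglionic eminence, 2 rose and 3 fell, with Nr2f1 at 478.7 ± 6.03 CPM in the mutant and 97.5 ± 19.3 CPM in wild type, Prox1 at 134.3 ± 8.70 CPM in the mutant and 49.8 ± 8.66 CPM in wild type, and Sp8 at 17.5 ± 1.31 CPM in the mutant and 47.3 ± 6.91 CPM in wild type. The other falls were those of Calb2 and Htr3a, by 1.38 and 0.81 on the log2 scale. The part of these cell types in the rise of Sst and Npy was not tested. Markers of microglia (64.0 to 77.1 CPM in mutant, 51.2 to 62.3 CPM in wild type), endothelium (129.5 to 133.8 CPM in mutant, 133.6 to 153.4 CPM in wild type) and red blood cells (579.7 to 775.1 CPM in mutant, 434.0 to 641.9 CPM in wild type) gave 0, 0 and 1 rises and 0, 1 and 0 falls. Of the choroid plexus list 2 of 3 tested markers rose and 1 fell, and its defining gene Ttr had 5 reads in the mutant and 6 in wild type.

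Other neuropeptide precursors were mostly rare in this tissue. Of 44 listed, 30 were in the table and 8 were tested. Of these, 1 rose, 1 fell and 6 did not pass (median −0.06), beside 11.2% higher and 12.8% lower over all genes tested. Pnoc, the precursor of the opioid-like peptide nociceptin, rose to 5.85 ± 0.474 CPM in the mutant, against 2.51 ± 0.406 CPM in wild type (log2 fold change 1.22 ± 0.149, edgeR adjusted p = 0.00184). It thus moved opposite to Penk and Pdyn. Apln, the precursor of apelin, fell to 18.8 ± 2.43 CPM in the mutant, against 32.3 ± 3.81 CPM in wild type (−0.79 ± 0.146, adjusted p = 0.00293). Nmb, the precursor of neuromedin B, was at 2.21 ± 0.32 and 2.83 ± 0.155 CPM in mutant and wild type (adjusted p = 0.217). Cort, which encodes cortistatin, a peptide close to somatostatin, is named after its values were seen: it was at 1.66 ± 0.20 CPM in the mutant and 1.75 ± 0.489 CPM in wild type (adjusted p = 0.813).

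Of the enzymes that cut and finish the peptides 13 were tested; there were 2 rises and 1 fall, and 10 did not pass (median 0.01). That share of calls is near that over all genes, 3673 of 15326 called in either direction. Pam, which amidates peptide ends such as those of substance P and neuropeptide Y, rose to 100.8 ± 6.09 CPM in the mutant, against 66.7 ± 4.29 CPM in wild type (0.59 ± 0.0736, edgeR adjusted p = 7.20e-04). Scg5, the 7B2 chaperone of the convertase Pcsk2, fell to 75.7 ± 3.05 CPM in the mutant, against 111.6 ± 2.67 CPM in wild type (−0.56, adjusted p = 2.33e-04). Cpe, the carboxypeptidase that trims basic residues, was the most abundant uncalled member, at 471.3 ± 25.2 and 442.5 ± 19.7 CPM in mutant and wild type. Both Pcsk1, at 0.979 ± 0.264 CPM in the mutant and 1.84 ± 0.673 CPM in wild type (adjusted p = 0.0908), and Pcsk6, at 2.11 ± 0.404 CPM in the mutant and 3.37 ± 0.874 CPM in wild type (adjusted p = 0.0868), convertase genes given after their values were seen, were uncalled. The convertase gene Pcsk5, at 2.76 ± 0.268 CPM in the mutant and 1.499 ± 0.446 CPM in wild type, passed at adjusted p = 0.0429 but not under most alternatives.

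Proteins of the dense-core granule moved in both directions. There were 10 tested, with 2 rises, 3 falls and 5 that did not pass (median 0.11). Over all genes tested, 11.2% were higher and 12.8% lower. Syt4, a synaptotagmin of granules, fell to 65.2 ± 6.58 CPM in the mutant, against 201.9 ± 21.7 CPM in wild type (−1.63 ± 0.124, edgeR adjusted p = 1.86e-05). Vgf fell to 3.23 ± 0.578 CPM in the mutant, against 11.03 ± 2.29 CPM in wild type, and Scg2 to 4.89 ± 0.793 CPM, against 11.1 ± 3.38 CPM. Both encode granule proteins that are cut into peptides themselves. Chgb, a chromogranin, rose by 0.50 on the log2 scale. Scg3 rose by 0.20 with adjusted p = 0.0424, a call that most alternatives lost. Cadps, a priming factor of granules, was at 102.7 ± 10.8 and 113.9 ± 4.90 CPM in mutant and wild type (adjusted p = 0.228).

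Receptors for the same peptides moved in both directions. Of 27 listed, 24 were in the table and 14 were tested. Of these, 3 rose, 5 fell and 6 did not pass (median −0.60), beside 11.2% higher and 12.8% lower over all genes tested. Sstr2 and Npy1r, among the receptors for the peptides whose genes rose, fell by 1.80 and 1.90 on the log2 scale. Sstr1, also a somatostatin receptor, rose, as given below. Npy2r, a further neuropeptide Y receptor named after its values were seen, was uncalled (edgeR adjusted p = 0.0675). It was at 3.87 ± 0.853 CPM in the mutant and 1.84 ± 0.965 CPM in wild type. Tacr1, the substance P receptor, rose to 21.0 ± 0.245 CPM in the mutant, against 4.998 ± 1.74 CPM in wild type (edgeR adjusted p = 2.54e-04). Oprm1, the mu opioid receptor, fell to 1.11 ± 0.499 CPM in the mutant, against 12.6 ± 1.09 CPM in wild type. The fall of Oprk1, the kappa opioid receptor, is given after its values were seen (log2 fold change −2.35, adjusted p = 0.0165). Cckbr, a cholecystokinin receptor, had 1 read over the mutant and 46 over the wild type libraries, a ratio of wild type to mutant of 52.2 with an interval of 8.91 to 2105. Ntsr2 rose by 2.05, and Sstr1 by 1.64 with adjusted p = 0.0276, a call lost without mutant replicate 1 or wild type replicate 1 or 2 and with a replicate block (adjusted p = 0.0705). Sort1, the sortilin that also binds neurotensin, was at 266.3 ± 4.33 and 260.8 ± 1.48 CPM in mutant and wild type. Cckbr and Oprk1 passed the filter on low counts by their wild type reads alone, so the direction of their calls was set by the filter. The mutant reads of Oprm1 would not have passed it alone, nor would the wild type reads of Ntsr2 and Sstr1, so the filter favoured the direction of these calls.

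**Figure D4:**
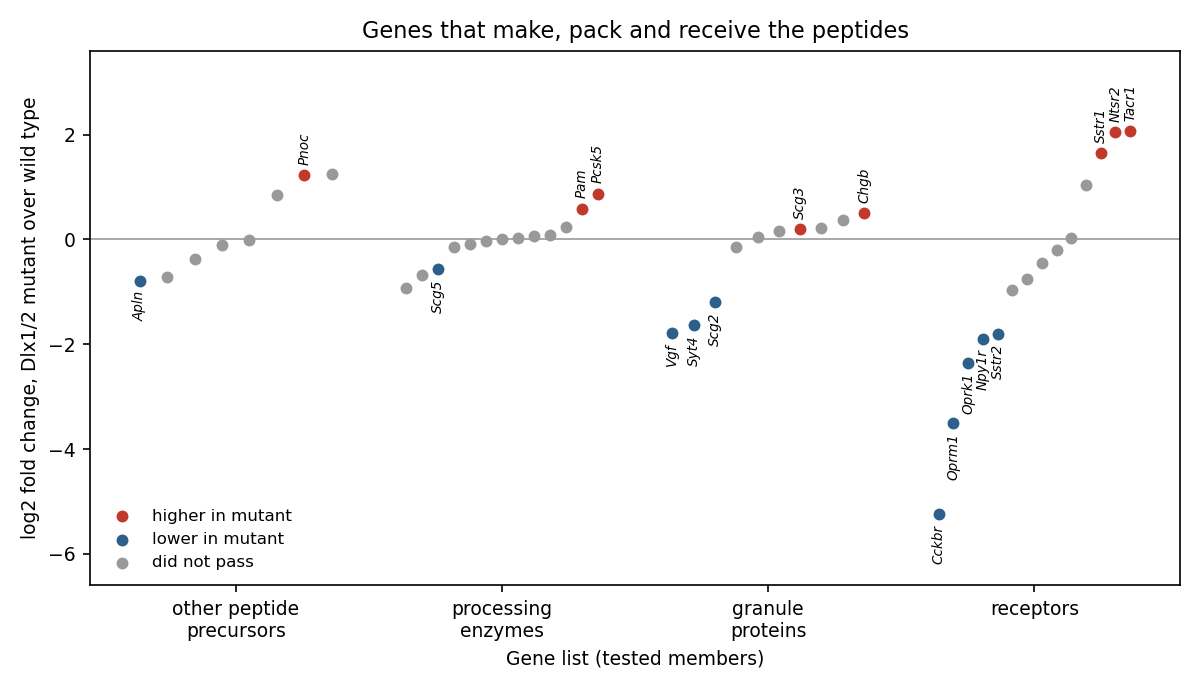
Log2 fold change, mutant over wild type, of the tested genes in 4 lists: other peptide precursors, processing enzymes, granule proteins and receptors; each point is a gene, in red where it was higher, in blue where it was lower and in grey where it did not pass. Processing enzymes lie on both sides of 0, from −0.92 for Pcsk1 to 0.87 for Pcsk5, while receptors reach up to 2.06 for Tacr1; Cckbr, with 1 mutant read, is the lowest point.

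Promoter sequence was compared because the members fell into a rising and a falling group. RefSeq promoters (GRCm38.p6, 250 bases before the start) were at hand for 8 of the 10 members, with 9 start sites. On both strands they were searched for the cAMP response element TGACGTCA, the homeodomain cores TAATTA and TAATTG, and the TATA sequence TATAAA. The windows of 30 bases around the matches read as follows, with the match in capitals.
Sst, chr16:23890874-23890903, minus strand: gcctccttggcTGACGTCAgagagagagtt
Cartpt, chr13:99900777-99900806, minus strand: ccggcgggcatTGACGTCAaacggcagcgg
Tac1, chr6:7554949-7554978, plus strand: cgagggggcggcTAATTAaatattgagcag
Nts, chr10:102490581-102490610, minus strand: gagcaacagctgCAATTAgggaagatcgtc

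Distances are counted from the RefSeq start. The GENCODE genes Sst and Tac1, whose coordinates are given above, begin further upstream, so that both windows lie inside those genes. The same holds for Cartpt, which spans 99898489 to 99901091 on the minus strand of chromosome 13. The cAMP response element stood 48 to 41 bases before the start of Sst and 112 to 105 bases before that of Cartpt, and in 1.55% of 32851 promoters of the same length. TAATTA stood 100 to 95 bases before the start of Tac1, and in 4.84% of promoters. TAATTG stood on the other strand of Nts, 180 to 175 bases before its start, and in 7.17% of promoters. TATAAA was in none of the 9 windows and in 12.4% of promoters. These matches describe the letters of the windows and were not linked to the changes in level.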

How the data were processed

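RNA of E16.5 LGE was measured in 3 mutant and 3 wild type libraries. Per the submitters' processing notes, HISAT2 2.0.4, StringTie 1.3.0 and edgeR were used with GRCm38.p4 and mm10; no source used here names the counter, the annotation release or the strand setting. Per the file headers, the authors deposited raw read counts and FPKM per gene, the mean FPKM of each group, and a p-value per gene whose test is not stated. In the authors' deposited table that p-value was 4.86e-89 for Sst and 1.38e-93 for Tac1; it was used for no call. Of the gene IDs, 21146 matched GENCODE M21.

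Tests on the counts were run with edgeR 4.0.16 under R 4.3.3. The filter was filterByExpr (about 10 counts in at least 3 libraries and 15 in all), libraries were scaled by TMM, and the genotypes were tested with the quasi-likelihood F test over 15326 genes with Benjamini-Hochberg adjustment. The biological coefficient of variation was 0.122. SE come from log2 CPM with 0.5 added to each count. Replicates of a genotype differed by more than sampling noise (chi-square per degree of freedom 7.15 to 14.3). The method was tested on simulated counts. Alternatives were RLE scaling, no filter, DESeq2 1.42.0, a replicate block, leaving out each library and a 2-fold minimum.

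The members and lists were chosen with earlier results of these data known. All members are named; of each pathway list, up to 4 called genes per direction by adjusted p and the most abundant uncalled gene; of marker lists, counts, summed levels and some of the 3 most abundant genes. The text marks genes chosen outside this rule after their values were seen; Slc17a7, Ttr, Nkx2-1, Tbr1, Eomes, Emx1, Calb2 and Htr3a are further ones, given as defining markers of their cell types.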

Additional observations from a re-analysis of the deposited data

How the results depend on the processing

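Sst, Npy, Tac1, Pdyn and Nts kept their direction and their call under RLE scaling, no filter, DESeq2, the replicate block, the 2-fold minimum and each library left out. Penk kept its direction; with single libraries left out its log2 fold change ran from −1.34 to −0.89 and adjusted p reached 0.0587, and the number of lower precursors was 3 to 4. With a 2-fold minimum the calls over all genes were 436 higher and 619 lower. Leaving out single libraries gave 1211 to 1626 higher and 1416 to 1956 lower. Small lists moved by 1 to 3 genes. With the 2-fold minimum, 0 processing enzymes were higher and 0 lower, 0 granule proteins were higher and 0 other precursors were lower. Without a filter, 4 other precursors were higher and 3 lower, as more genes were tested, and 1 processing enzyme and 1 granule protein were higher. DESeq2 gave 1 and 1 for the same lists. With single libraries left out, other precursors gave 2 to 3 higher and 1 to 2 lower, processing enzymes 1 to 2 higher, granule proteins 1 to 2 higher and receptors 3 to 5 higher, with 5 without wild type replicate 3.

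The labels do not say whether equal replicate numbers pair the libraries. Deviations of same-numbered libraries correlated at −0.176, 0.0426 and −0.168, and no mutant library correlated best with its own number. As deviations are taken from a mean of 3 libraries, these correlations constrain each other and cannot decide whether the numbers pair. With the replicate block, 1223 genes were higher and 1457 lower, and 1 processing enzyme and 1 granule protein were higher. The block changed the call of no precursor among the members, and among the named pathway genes it ended those of Pcsk5, Scg3 and Sstr1, leaving 2 receptors higher. Depth limits Cck, Crh, Gal and Cartpt, for which no filter gave adjusted p of 0.37 to 0.608.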

Other observations

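Some rare peptide genes that failed the filter on low counts were found in 1 genotype nearly alone; they were picked after their values were seen. Npvf, the precursor of RFamide peptides of the hypothalamus, had 46 reads over the mutant libraries and 0 over the wild type libraries. Adcyap1, the precursor of the peptide PACAP, had 40 reads in the mutant and 0 in wild type. Cckar, a cholecystokinin receptor, had 34 reads in the mutant and 0 in wild type. Grp, the precursor of gastrin-releasing peptide, had 19 reads in the mutant and 1 in wild type, a ratio of 16.8 after scaling to library size (95% Clopper-Pearson bounds 2.66 and 696.0).

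In the other direction, Trh, the precursor of thyrotropin-releasing hormone, had 2 reads in the mutant and 22 in wild type, a ratio of wild type to mutant of 12.5 with an interval of 3.07 to 109.5. Ucn3, which encodes urocortin 3, had 1 read in the mutant and 18 in wild type (ratio 20.4, interval 3.22 to 850.7). Without the filter on low counts all 6 passed the edgeR quasi-likelihood test, with adjusted p of 0.0034 for Npvf, 0.00639 for Adcyap1, 0.0111 for Cckar, 0.032 for Ucn3, 0.0335 for Trh and 0.0357 for Grp. As they were picked for these same reads, their passing is not separate evidence. Sstr5, a somatostatin receptor gene with 2 reads in the mutant and 21 in wild type, did not pass in that fit (adjusted p = 0.0645). Oxt, Pmch, Agrp, Gnrh1 and Ghrh, other peptide genes of the hypothalamus, did not pass in that fit, with adjusted p of 0.399 to 0.73. Pomc, a further one given after its values were seen, had 63 reads in the mutant and 23 in wild type. It was tested in the main edgeR fit and did not pass there (log2 fold change 1.25, adjusted p = 0.0976).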
